A study of Mus musculus with 3 samples.

Results

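Transcripts of the proteasome were followed across thymic T cells sorted as invariant natural killer T (iNKT) cells. The genes were taken by symbol, as all Psma, Psmb, Psmc, Psmd and Psme genes with a number except Psmb8 and Psmb9, which gave 43 of the 31053 gene identifiers of the C57BL/6 library and the same 43 of the 32285 identifiers of each library from transplanted mice. They comprised 8 alpha subunits (Psma), 7 standard beta subunits (Psmb1 to Psmb7), 2 exchangeable beta subunits (Psmb10 and Psmb11), 6 ATPases (Psmc), 14 Psmd genes, 5 activator genes (Psme) and Psmc3ip, which fits the symbol rule but encodes a partner of meiotic recombinases and no proteasome subunit. The Psmd genes are those of the other subunits of the regulatory particle, and not all of them encode a part of the finished particle.

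The study asked how thymic iNKT cells re-form after bone marrow transplantation (BMT) with graft-versus-host disease. Untransplanted C57BL/6 mice, aged 7 weeks in the labels, gave 1 droplet library. F1 mice (C57BL/6 x BALB/c), 16 weeks old and 9 weeks after BMT, gave 1 library each for BM only and BM + Spl. Both BMT groups had been lethally irradiated and had received T cell-depleted C57BL/6 marrow, and BM + Spl mice had also received C57BL/6 splenic cells, after which they developed the disease. Each library held thymocytes pooled from several mice, from which CD8+ cells were removed before a sort for cells positive for TCRβ and the CD1d tetramer and negative for CD24 and NK1.1. With 1 library per condition no value has a replicate check and no test was possible, so all intervals given are exact 95% intervals that cover counting error only.

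The proteasome degrades proteins tagged with ubiquitin. Its 20S core is a stack of rings of alpha and beta subunits, in which Psmb5, Psmb6 and Psmb7 carry the standard catalytic sites, and its 19S regulatory particle holds the ATPases that unfold substrates and the Psmd subunits that bind ubiquitin, remove it or form the base and lid. Interferon-γ induces catalytic subunits that replace the standard ones in newly made cores, among them Psmb10 in place of Psmb7, together with Psme1 and Psme2, which form the PA28 activator. In the thymus a further variant with Psmb11 in place of Psmb5 belongs to cortical epithelial cells.

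Upstream sequences are shown for a few members chosen after their values were seen: catalytic subunits (Psmb5, Psmb6), an alpha subunit that was low in NKT1-gated cells (Psma6), an ATPase (Psmc2) and interferon-inducible genes (Psmb10, Psme2). They come from RefSeq promoter windows of build GRCm38.p6, which hold the 250 bases before and 50 bases after a gene's start and were found for 36 of the 43 members. No window was found for Psma8, Psmb1, Psmb2, Psmb7, Psmc3, Psmd3 and Psmd7. The 4 motifs that follow were searched on both strands of 1 window per gene, and no motif overlapped another in the stretches shown. TGACNNNGC, the core of the antioxidant response element that the proteasome regulator Nfe2l1 binds, was in 6 of 36 members against 12.5% of 27025 genes. The 6 were Psmb5, Psmb6, Psmc6, Psmd9, Psmd12 and Psme4. CCAAT, bound by NF-Y, was in 14 members against 37.9% of genes. The interferon motif GAAANNGAA was in 5 members against 8.57% of genes, and the STAT motif TTCNNNGAA was in 1 member against 8.47% of genes. The member with the latter was Psmd2. The 5 members with GAAANNGAA were Psmb3, Psmb4, Psmd4, Psmd9 and Psme1, where in Psme1 the match TTCGCTTTC on the reverse strand lay after the start. Capitals mark these motifs in the following stretches of up to 150 bases before the start, with bases inside the GENCODE gene left out.
Psmb5: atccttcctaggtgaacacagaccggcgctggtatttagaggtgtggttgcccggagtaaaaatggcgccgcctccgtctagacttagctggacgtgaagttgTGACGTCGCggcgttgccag
Psmb6: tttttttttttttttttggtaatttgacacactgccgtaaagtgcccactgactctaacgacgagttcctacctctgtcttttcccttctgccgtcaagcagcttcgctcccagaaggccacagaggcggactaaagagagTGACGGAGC
Psma6: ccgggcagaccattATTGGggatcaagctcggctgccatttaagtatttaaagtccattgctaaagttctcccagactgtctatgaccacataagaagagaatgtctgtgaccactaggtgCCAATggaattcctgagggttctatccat
Psmc2: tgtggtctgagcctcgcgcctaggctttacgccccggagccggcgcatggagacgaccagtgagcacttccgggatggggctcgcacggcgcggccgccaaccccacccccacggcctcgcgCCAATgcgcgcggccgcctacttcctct
Psmb10: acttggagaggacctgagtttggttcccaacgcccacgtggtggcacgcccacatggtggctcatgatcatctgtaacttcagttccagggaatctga
Psme2: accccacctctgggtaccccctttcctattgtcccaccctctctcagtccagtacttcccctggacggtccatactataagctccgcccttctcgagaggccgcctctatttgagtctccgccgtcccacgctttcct
They lie at chr14:54618023-54618145 (minus strand), chr11:70525207-70525356 (plus strand), chr12:55384072-55384221 (plus strand), chr5:21785125-21785274 (plus strand), chr8:105938445-105938542 (minus strand) and chr14:55591114-55591251 (minus strand). The stretches of Psmb5 and Psmb6 carry the TGACNNNGC motif, and those of Psma6 and Psmc2 carry CCAAT. Whether the motifs bear on the levels of the members was not tested. In the stretches of Psmb10 and Psme2, 2 of the genes that were higher in cells with interferon-induced transcripts, these letters were not found, which says nothing about the factors that act there.

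The 3 libraries held 4434, 5970 and 5557 cells of C57BL/6, BM only and BM + Spl after filtering (over 200 and under 6000 genes and under 10% mitochondrial transcripts), with a median of 12086.5, 4740 and 6495 unique molecular identifiers (UMIs, counts of captured transcript molecules). The table of the C57BL/6 library was made with another version of Cell Ranger and another gene list than those of the BMT libraries, so its levels were not set against theirs by a ratio. The paper states the same limits but reports slightly more cells for C57BL/6 and clearly fewer for both BMT groups. The cells used here are thus not the same sets as those of the study. BM only and BM + Spl shared 43 cell barcodes. Among cells with UMIs of a T cell receptor V beta segment, 89.3%, 73.3% and 55.1% used segments of iNKT cells. Only 880 C57BL/6 cells had such UMIs, against 5343 and 4955 cells of the BMT libraries.

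Within each library every cell was put into 1 gate by its UMIs on fixed marker genes. Cells with at least 5 UMIs on S or G2/M genes were called cycling (S-gated or G2/M-gated by the larger sum), and the others were gated by Foxp3 (Treg), Cd8a and Cd8b1 (CD8), NKT17 marker genes such as Il17a and Il23r (NKT17) or by the balance of NKT1 genes (Tbx21, Il2rb, Nkg7, Xcl1, Klrd1) and NKT2 genes (Zbtb16, Il17rb, Il4, Pdcd1, Id3), after cells with B cell, myeloid or plasmacytoid dendritic cell (pDC) genes had been set apart. Treg-, CD8-, B cell- and pDC-gated cells reached 50 cells only in the BMT libraries. In NKT1-gated cells the summed NKT1 genes stood at 2169, 3605 and 2624 CPM (UMIs per 1000000 UMIs of the gate) in C57BL/6, BM only and BM + Spl against 105, 122 and 96.4 CPM in NKT2-gated cells. T cell genes (Cd3e, Cd3g, Trbc1, Trbc2) summed to between 3415 and 4568 CPM in NKT1- and NKT2-gated cells of the 3 libraries and to 244 CPM in B cell-gated cells of BM only.

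Proteasome transcripts made up the smallest share of UMIs in NKT1-gated cells and the largest in G2/M-gated cells among the NKT and cycling gates of each library. In C57BL/6 the share was 0.455% (0.451% to 0.460%) in NKT1-gated, 0.542% in intermediate, 0.556% in NKT17-gated, 0.568% in NKT2-gated, 0.794% in S-gated and 0.923% (0.916% to 0.930%) in G2/M-gated cells. In BM only it was 0.490% in NKT1-gated, 0.541% in NKT17-gated, 0.642% in NKT2-gated, 0.753% in S-gated and 0.854% in G2/M-gated cells. In BM + Spl it was 0.579%, 0.649%, 0.669%, 0.813% and 0.846% in the same gates. NKT17-gated cells stood next to NKT2-gated cells in C57BL/6 and BM + Spl and nearer to NKT1-gated cells in BM only. Among the other cells of the BMT libraries, B cell-gated cells had the smallest share, at 0.429% in BM only, and Treg-gated cells reached 0.593% and 0.660%. Over single cells of C57BL/6, the range between the quartiles was 0.376% to 0.512% in NKT1-gated and 0.808% to 1.049% in G2/M-gated cells, and these ranges did not overlap. Depth moved with the share, since the median was 6335 UMIs in NKT1-gated, 12391 in NKT2-gated and 19282 in cycling C57BL/6 cells. Thinned to 2500 UMIs per cell, the summed members had a log2 ratio of cycling to NKT2-gated cells of 0.54 in C57BL/6 and 0.24 in BM only. With gates set on the thinned cells it was 0.43 and 0.22. Thinning evens out counts but not total RNA per cell, and the part of either in these shares was not otherwise tested.

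**Figure D1:**
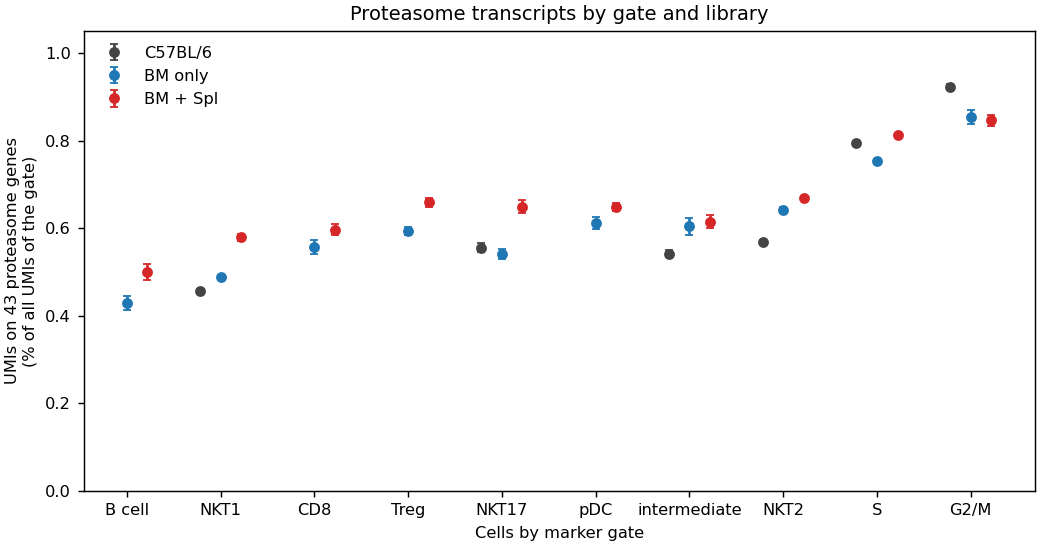
UMIs on the 43 proteasome genes as a percentage of all UMIs, by marker gate (x axis) and library, with exact 95% counting intervals, for gates of at least 50 cells. S- and G2/M-gated cells stand above all other gates in each library, at 0.753% or more, and among NKT gates NKT1-gated cells are lowest.

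Cycling cells had higher levels of nearly all core, ATPase and lid genes than NKT2-gated cells, while Psmb10 and Psme1 were near or below the NKT2-gated level. The summed members were higher by a log2 ratio of 0.54 (0.53 to 0.55) in C57BL/6, 0.26 (0.24 to 0.27) in BM only and 0.29 (0.27 to 0.30) in BM + Spl, over 1460, 759 and 1201 cycling cells. The cycling gate took precedence over the Treg, CD8 and NKT gates and held cells of several kinds. In the same order, 91.0%, 73.0% and 68.4% of its cells with V beta UMIs used iNKT segments. Its NKT1 genes summed to 212, 679 and 469 CPM, and Foxp3 stood at 56.4 and 59.1 CPM in the BMT libraries. In cells with iNKT V beta segments, the summed ratio of cycling to NKT2-gated cells was 0.53 (0.50 to 0.55) in C57BL/6. In BM only it was 0.25 (0.23 to 0.27). Other T cells use these segments too, so the part of this mix in the ratios was not tested beyond this restriction. Past 1.2-fold, 33, 22 and 26 of the 40 members with at least 10 CPM were higher, and 1 was lower in each library. Of all genes tested 31.1%, 30.1% and 29.4% were higher and 21.6%, 23.8% and 22.8% were lower past 1.2-fold. Past 1.5-fold, 25, 1 and 4 members were higher, where 13.2%, 14.4% and 14.3% of all genes were. Psmc3ip, which is no subunit, was the 1 in BM only and among the 4 in BM + Spl. It is also among the 22 and 26 members past 1.2-fold. In the BMT libraries the members thus did not stand above all genes past 1.5-fold. Of the 39 members tested in all 3 libraries 35 were higher in each and 21 were higher past 1.2-fold in each. The share of all genes higher in each library is not given. The median ratio was 0.63, 0.36 and 0.35 over the members tested and 0.04, 0.02 and 0.02 over all genes tested. In BM only the count of members higher past 1.2-fold fell from 22 to 13 without the 6% of cells with the most UMIs, a setting for which the share of all genes is not given.

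Among alpha subunits, which form the outer rings of the core, Psma7 had the highest ratio in C57BL/6 and BM + Spl (log2 0.77 and 0.54) and Psma3 in BM only (0.41). Psma3 was the lowest in C57BL/6 at 0.56, and Psma6 was the lowest in BM only and BM + Spl at 0.16 and 0.24. Among standard beta subunits the catalytic Psmb6 stood at 146 CPM in NKT2-gated and at 248 and 315 CPM in S- and G2/M-gated C57BL/6 cells, a log2 ratio of cycling to NKT2-gated cells of 0.86 (0.80 to 0.93). In BM only Psmb6 stood at 196, 250 and 295 CPM and in BM + Spl at 201, 274 and 344 CPM in the same gates, so the G2/M-gated cells were highest in all 3 libraries. Psmb7, the standard catalytic subunit that Psmb10 replaces, had the highest beta ratio in BM only and BM + Spl (0.47 and 0.55). Psmb3 was also high in C57BL/6 (0.80), whereas Psmb1 had low ratios in each library (0.12, 0.17 and 0.14) and Psmb4 was the lowest in BM only (0.15).

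The 6 ATPases that unfold substrates were all higher past 1.2-fold in C57BL/6, and 5 of 6 were in each BMT library. Psmc4 had the highest ratio in C57BL/6 and BM + Spl (0.77 and 0.67), Psmc3 in BM only (0.58, and 0.66 in BM + Spl), and Psmc2 in C57BL/6 and Psmc6 in BM only and BM + Spl the lowest (0.61, 0.18 and 0.23). Of 14 Psmd genes, 12, 6 and 9 were higher past 1.2-fold. The counts of both roles stand beside 31.1%, 30.1% and 29.4% of all genes tested, and the 6 of 14 in BM only was nearest to this share. Psmd1, a scaffold of the base, stood at 63.5, 108 and 129 CPM in NKT2-, S- and G2/M-gated C57BL/6 cells, a ratio of 0.84, and at 0.48 and 0.63 in the BMT libraries. Psmd13 followed with 0.81, 0.52 and 0.46. Psmd10, known as an assembly chaperone and no part of the finished particle, was the lowest with 0.11, −0.12 and −0.07, and Psmd8 was low in the BMT libraries (0.07 and 0.04).

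Ratios below 0 were also found among the exchangeable and activator genes. Psmb10 stood at 194, 224 and 239 CPM in NKT2-gated cells and at 201, 181 and 201 CPM in S-gated cells of C57BL/6, BM only and BM + Spl. Its ratio of cycling to NKT2-gated cells was 0.07 (0.00 to 0.13), −0.34 (−0.44 to −0.23) and −0.26 (−0.33 to −0.18), the reverse of Psmb7 in both BMT libraries. Psme1 had ratios of 0.09, −0.13 and −0.12 and its partner Psme2 of 0.39, 0.11 and 0.22. Psme3, which forms the nuclear PA28γ activator, was higher in each library (0.59, 0.47 and 0.34). Psme4, the PA200 activator, had 0.07, 0.07 and −0.33, the last on 252 and 179 UMIs. Psme2b had −0.55 in C57BL/6, where alone it reached 10 CPM. Its transcript is 99.4% identical to Psme2 over 794 aligned bases, so reads may be split between the pair and its values are uncertain.

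Psmc3ip, the gene that is no subunit, was the member with the highest ratio in BM only and BM + Spl (2.85 and 3.36, from 230 and 382 UMIs in cycling cells against 18 and 21 in NKT2-gated cells). In C57BL/6, where it was under 10 CPM, it had 362 and 43 UMIs and a ratio of 2.24 (1.78 to 2.73). Unlike most members it was lower in G2/M- than in S-gated cells, by a log2 ratio of −1.09, −1.75 and −1.46 in the 3 libraries. Between these phases 26 of 40 members were higher in G2/M-gated cells in each library and Psmc3ip was the only one lower in each, with a summed ratio of 0.22, 0.18 and 0.06 beside a median over all genes of 0.05, 0.01 and 0.06. Past 1.2-fold 17 of 41, 15 of 40 and 4 of 40 members were higher, beside 19.5%, 25.5% and 28.6% of all genes, and 1, 1 and 2 were lower, beside 16.4%, 25.5% and 20.3%. In BM + Spl the members thus did not stand above all genes. The share of all genes higher in G2/M-gated cells of each library is not given.

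Ribosomal and mitochondrial transcripts bear on these values. With both left out of the total, all ratios of cycling to NKT2-gated cells moved by −0.12, −0.10 and −0.10, so that 30, 21 and 19 members were still higher past 1.2-fold, and the ratios of Psmb10, Psme1, Psme4 and Psmd10 in C57BL/6, of Psme4 and Psmd8 in BM only and of Psmd5 and Psmd8 in BM + Spl came to lie below 0. Among the genes past 1.2-fold in either direction, the share that was higher went under this scaling from 59.0% to 41.8% in C57BL/6, from 55.8% to 42.4% in BM only and from 56.3% to 42.97% in BM + Spl. The share of all genes tested that was higher under this scaling is not given.

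**Figure D2:**
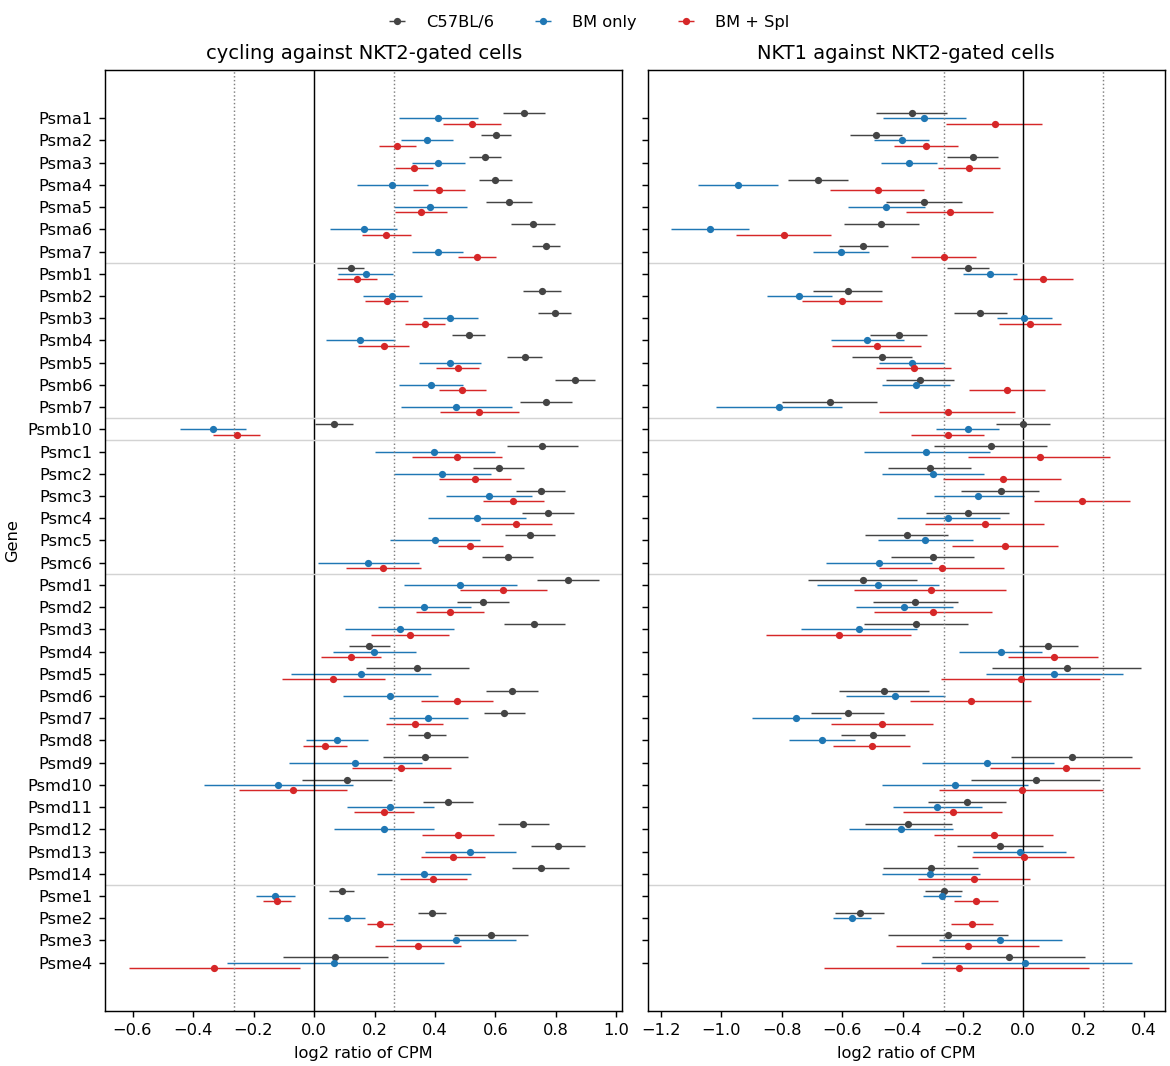
log2 ratio of CPM for 39 members in cycling against NKT2-gated cells (left) and NKT1- against NKT2-gated cells (right) in each library, with exact 95% counting intervals, ordered by role and separated by grey lines. Dotted lines mark 1.2-fold. Psmb10 and Psme1 sit near or below 0 on the left. On the right Psma6 lies at −1.04 in BM only, and most members lie below 0 in each library.

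NKT1-gated cells had lower levels than NKT2-gated cells of most core subunits, and fewer of the ATPases and Psmd genes differed in BM + Spl. The summed members had a log2 ratio of −0.32 (−0.34 to −0.30) in C57BL/6, −0.39 (−0.41 to −0.37) in BM only and −0.21 (−0.23 to −0.19) in BM + Spl, over 1113, 2560 and 747 NKT1-gated cells. Past 1.2-fold 24 of 40, 27 of 39 and 12 of 39 members were lower, and 1, 0 and 0 were higher. Of all genes tested 20.9%, 28.2% and 24.6% were lower and 28.9%, 28.6% and 32% were higher past 1.2-fold. Of 39 members 29 were lower in each library and 12 were lower past 1.2-fold in each. The share of all genes lower in each library is not given. The median ratio was −0.32, −0.36 and −0.18 over the members tested and 0.05, −0.01 and 0.04 over all genes tested. Without ribosomal and mitochondrial transcripts all ratios moved by −0.08, −0.09 and −0.12, which takes those of Psmd4 and Psmd10 in C57BL/6, Psmb3 and Psme4 in BM only, and Psmb1, Psmb3, Psmc1, Psmd4 and Psmd13 in BM + Spl below 0. The counts of lower members were then 28, 30 and 24. Among the genes past 1.2-fold in either direction, the share that was higher went from 58.1% to 45.6%, from 50.4% to 39.9% and from 56.5% to 42.5%. The share of all genes tested that was lower under this scaling is not given.

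The alpha subunits showed the largest differences. Psma6 stood at 94.0 and 130 CPM in NKT1- and NKT2-gated cells of C57BL/6, at 91.6 and 188 CPM in BM only and at 110 and 192 CPM in BM + Spl, with ratios of −0.47 (−0.59 to −0.35), −1.04 (−1.17 to −0.91) and −0.79 (−0.95 to −0.64). Psma4 stood at 138 and 221, 86.3 and 166, and 119 and 166 CPM, with ratios of −0.68, −0.95 and −0.48. NKT1-gated cells were thus the lower ones for both genes in every library, and their counting intervals did not reach 0. Psma3 had the smallest alpha difference in C57BL/6 (−0.17), and Psma1 in BM only and BM + Spl (−0.33 and −0.10).

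Of the standard beta subunits Psmb2, which holds no catalytic site, had ratios of −0.58, −0.74 and −0.60. Psmb7 had −0.64, −0.81 and −0.25, and Psmb3 had ratios near 0 (−0.14, 0.00 and 0.02), as did Psmb1 in BM + Spl (0.06). Psmb4 in BM + Spl had −0.48. Psmb10 stood at 194 CPM in both gates of C57BL/6 and had ratios of −0.18 and −0.25 in BM only and BM + Spl. Among the ATPases Psmc5 was lowest in C57BL/6 (−0.39) and Psmc6 in BM only and BM + Spl (−0.48 and −0.27), and Psmc3 had the highest ratio in each (−0.08, −0.15 and 0.19), with Psmc1 at 0.05 in BM + Spl. Psmd7, a lid subunit, had −0.58, −0.75 and −0.47, Psmd8 had −0.50, −0.67 and −0.50 and Psmd3 in BM + Spl −0.61. The 4 Psmd genes at the other end were Psmd9 (0.16, −0.12 and 0.14), Psmd5 (0.15, 0.10 and −0.01), Psmd4 (0.08, −0.08 and 0.10) and Psmd10 (0.04 and −0.23 in C57BL/6 and BM only). Psmd13 was near 0 in BM only (−0.01). Psme2 had −0.54, −0.57 and −0.17 and Psme1 −0.26, −0.27 and −0.16. Psme3 had −0.25, −0.08 and −0.18 and Psme4 −0.05, 0.01 and −0.21, and Psme2b had 0.68 in C57BL/6.

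Most cells of the NKT1 gate used V beta segments of iNKT cells in C57BL/6 and BM only (87.3% and 86.3% of those with V beta UMIs), but only 38.3% (34.7% to 42.0%) did in BM + Spl, while in the NKT2 gate it was 87.0%, 85.3% and 83.0%. In the NKT17 gate it was 84.6% (of only 26 cells), 60.9% and 37.9%, so that many NKT17-gated cells of the BMT libraries carried other segments. Other T cells use these segments too. In BM only 40.9% of CD8-gated and 27.4% of Treg-gated cells with V beta UMIs did, and in BM + Spl 34.6% and 23.4% did. A cell with such a segment is thus not shown to be an iNKT cell. In BM only the NKT1-gated cells with iNKT V beta segments differed from those with other segments by −0.04 (−0.08 to −0.01) in the summed members, and in BM + Spl by 0.02 (−0.03 to 0.06).

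Psmb10 took the largest part of the Psmb10 and Psmb7 UMIs in NKT1-gated cells of C57BL/6 and BM only and the smallest in cycling cells of the BMT libraries. Psmb10 lies at chr8:105935735-105938444 on the minus strand and Psmb7 at chr2:38588036-38644087 on the minus strand (GENCODE genes on GRCm38). This share does not depend on the scaling of counts, and since capture differs between genes its size is compared only among cells of a library. In C57BL/6 it was 77.1% (75.2% to 79.0%) in NKT1-gated, 68.4% (67.0% to 69.7%) in NKT2-gated, 53.2% in NKT17-gated, 58.5% in S-gated and 53.6% in G2/M-gated cells. In BM only it was 83.9% (82.4% to 85.3%) in NKT1-gated, 77.1% in NKT2-gated, 69.2% in NKT17-gated, 66.7% in S-gated and 60.6% in G2/M-gated cells. In BM + Spl it was 77.2% in NKT1- and in NKT2-gated cells, NKT17-gated cells 74.8%, S- and G2/M-gated cells 66.6% and 62.3%, and pDC-gated cells 83.7% (81.3% to 85.8%). Within the NKT1 gate of BM + Spl it was 80.2% (75.8% to 84.1%) in cells with iNKT V beta segments and 74.6% (70.5% to 78.4%) in those with other segments. The order of NKT1 above NKT2 above S above G2/M held in C57BL/6 and BM only, with neighbouring intervals apart except for those of S- and G2/M-gated cells in BM only, which overlapped.

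**Figure D3:**
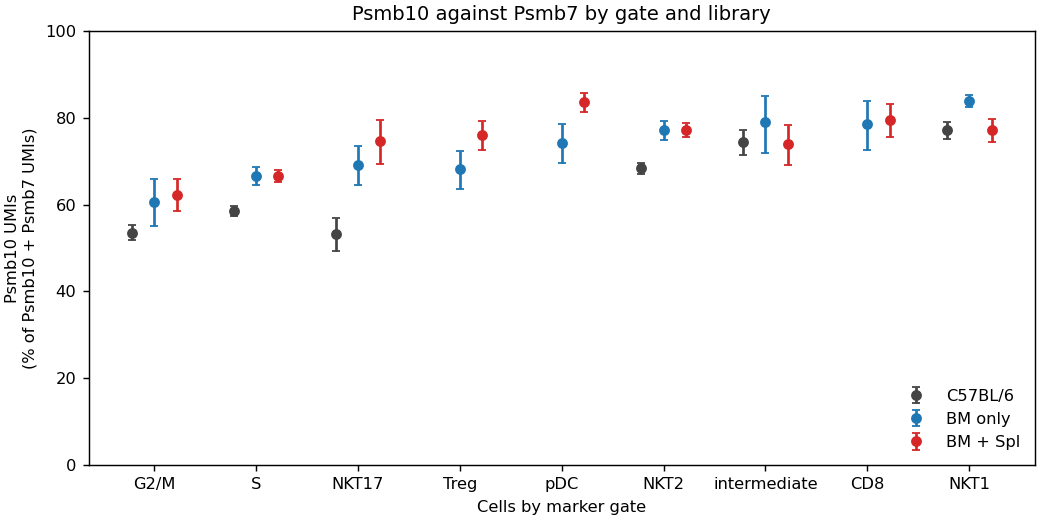
Psmb10 UMIs as a percentage of Psmb10 plus Psmb7 UMIs by marker gate (x axis) in each library, with exact 95% intervals. G2/M- and S-gated cells are the lowest in the BMT libraries, between 60.6% and 66.7%.

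Psmb10, Psme1 and Psme2 were higher in cells with interferon-induced transcripts, while the median over all members lay between −0.13 and 0.09. Interferon-high cells were those with at least 5 UMIs and 500 CPM on 7 genes (Ifit1, Ifit3, Ifit3b, Rsad2, Isg15, Usp18, Oasl2), none of them a member, and they were compared with the other cells of the same gate in 5 pairs that had at least 50 such cells. Psmb10 stood at 308 against 173 CPM in C57BL/6 NKT1-gated cells and at 274 against 180 CPM in NKT2-gated cells. In BM only it stood at 299 against 191 CPM and 367 against 205 CPM in the same gates, and in BM + Spl NKT2-gated cells at 370 against 209 CPM. The ratios were 0.83, 0.60 (0.48 to 0.73), 0.65 (0.43 to 0.86), 0.84 and 0.83 (0.69 to 0.96), with no interval below 0.43. Psme1 had ratios between 0.31 and 0.42 and Psme2 between 0.28 and 0.45 in the 5 pairs.

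Of 39 members tested in all 5 pairs, Psmb10, Psme1 and Psme2 were the 3 past 1.2-fold in each. The share of all genes that passed in all 5 pairs together is not given. In the order NKT1- and NKT2-gated cells of C57BL/6, the same of BM only, and NKT2-gated cells of BM + Spl, 7, 5, 7, 9 and 3 members were higher past 1.2-fold, beside 15.3%, 12.7%, 16.3%, 20% and 14.2% of all genes. Lower were 4, 2, 5, 1 and 4 members, beside 24.9%, 16.2%, 30.6%, 27.1% and 21.7%. Psma2 was the only other member above 0 in each (0.15 to 0.30), and Psma6 and Psmb5 were below 0 in each (Psmb5 between −0.24 and −0.16). The median member had 0.00 and −0.13 in NKT1- and NKT2-gated cells of C57BL/6, 0.04 and 0.09 in those of BM only and −0.03 in BM + Spl. Psmb7 had −0.20, −0.13, 0.08 and −0.13 in all pairs but NKT2-gated cells of BM only, where it had 0.67 (0.25 to 1.08) on 61 UMIs. Psme3, the activator that is not of the interferon-induced pair, had −0.38, 0.04, −0.64, −0.31 and −0.44, and Psme4 lay between −0.27 and 0.39 on 14 to 79 UMIs. Depth differed little between interferon-high and other cells of the C57BL/6 NKT1 gate (medians of 6477 and 6302 UMIs) and more in the NKT2 gate of BM only (8543 and 7247 UMIs).

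**Figure D4:**
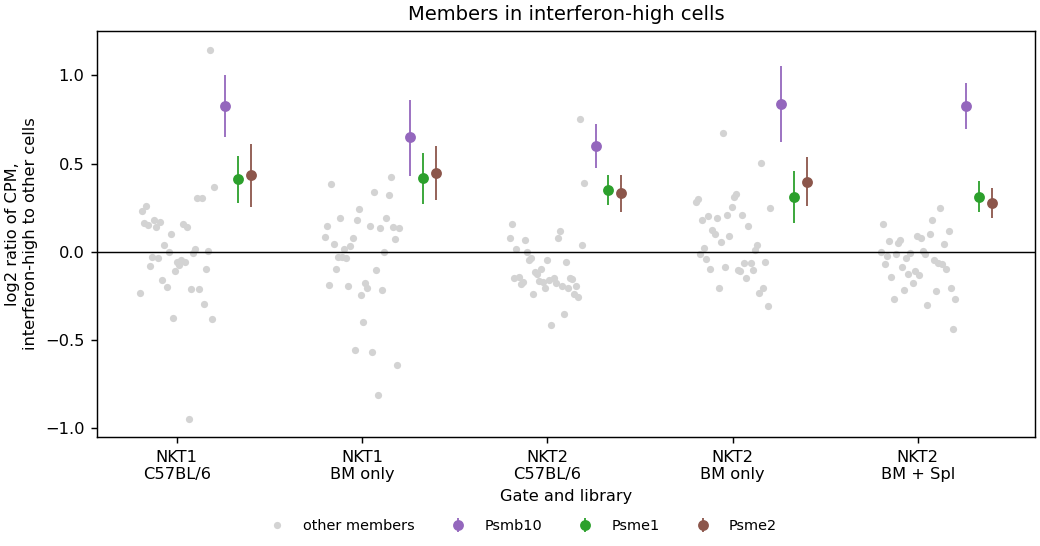
log2 ratio of CPM of interferon-high to other cells of the same gate, for the members with at least 10 CPM (grey points) and for Psmb10, Psme1 and Psme2 (coloured points with exact 95% counting intervals), in 5 pairs of gate and library on the x axis. Psmb10 lies between 0.60 and 0.84 in each pair, while the grey points scatter around 0.

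The members were higher in BM + Spl than in BM only over all cells, and the difference was larger in NKT1- and NKT17-gated cells than in NKT2-gated and cycling cells. Over all cells they made up 0.606% and 0.705% of UMIs in BM only and BM + Spl, a log2 ratio of 0.22 (0.21 to 0.23). Past 1.2-fold 9 of 40 members were higher and 0 lower, beside 12.2% and 14% of all genes. The 9 were Psme2 (0.37), Psma4 (0.34), Psmb7 (0.32), Psma6 (0.30), Psmd7 (0.30), Psma5 (0.29), Psmb5 (0.29), Psmc3ip (0.29) and Psmd11 (0.27). In all, 39 of 40 members were above 0, by little for Psmd5 (0.01), Psme3 (0.06), Psmd6 (0.09) and Psmd1 (0.10), and Psme4 was the exception (−0.23, on 789 and 747 UMIs). The share of all genes above 0 is not given. The median ratio was 0.21 over the members tested and 0.01 over all genes tested. Psmb10 and Psme1 had 0.18 each. By role, the highest and lowest ratios were those of Psma4 and Psma1 (0.34 and 0.21), Psmb7 and Psmb3 (0.32 and 0.11), Psmc4 and Psmc1 (0.24 and 0.11), Psmd7 and Psmd5, and Psme2 and Psme4. In cells with iNKT V beta segments 18 members were higher past 1.2-fold, and without the 6% of cells with the most UMIs 14 were. The share of all genes higher at these settings is not given, so these counts are not read against the 9.

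Gates of different makeup entered these totals: NKT1-gated cells, with the lowest share among the NKT gates, made up 42.9% of cells in BM only but 13.4% in BM + Spl, whereas cycling cells made up 12.7% and 21.6%. The share of iNKT V beta segments also differed in the NKT1 and NKT17 gates, as given above, and its part in these ratios was not tested in NKT17-gated cells. With the gates weighted by UMIs as in BM only, BM + Spl would have had 0.669%, a log2 ratio of 0.14. With the gates weighted as in BM + Spl, BM only would have had 0.655%, against 0.705% in BM + Spl. Within gates the summed members were higher in BM + Spl in 11 of 12 comparisons, which count cycling cells beside their S- and G2/M-gated parts and include ungated cells. In intermediate cells the ratio was 0.03 with an interval across 0 (−0.03 to 0.08), and G2/M-gated cells were the exception (−0.01, −0.05 to 0.02). The summed ratio was 0.26 (0.22 to 0.31) in NKT17-gated, 0.24 (0.22 to 0.27) in NKT1-gated, 0.15 (0.12 to 0.19) in Treg-gated, 0.22 in B cell-gated, 0.10 in CD8-gated, 0.08 in pDC-gated, 0.09 in cycling and 0.06 (0.04 to 0.08) in NKT2-gated cells.

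In NKT1-gated cells 15 of 39 members were higher and 1 lower past 1.2-fold, beside 24.6% and 21.3% of all genes. Psmb7 stood at 37.9 CPM in BM only and 59.3 CPM in BM + Spl, a ratio of 0.65 (0.40 to 0.89), and was followed by Psme2 (0.48), Psma4 (0.46), Psmc3 (0.40), Psmd7 (0.39) and Psmb6 (0.34). Psme4 was lower (−0.27, on 60 and 220 UMIs), and Psmd5 (−0.07), Psme3 (0.00), Psmb10 (0.03) and Psmd3 (49.0 CPM in each library) were near 0, with Psme1 at 0.17. The lowest alpha, beta and ATPase ratios were those of Psma2 (0.20), Psmb4 (0.08) and Psmc4 (0.14). The summed difference was 0.25 (0.21 to 0.28) among NKT1-gated cells with iNKT V beta segments and 0.19 (0.15 to 0.23) among those with other segments. Since other T cells use these segments too, this split does not hold the kind of cell constant. Psmb10 had ratios of opposite sign in these NKT1-gated cells, 0.24 with iNKT segments and −0.23 with other segments. With gates set on cells thinned to 2500 UMIs, 24 members were higher past 1.2-fold, and the share of all genes at this setting is not given.

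In NKT2-gated cells none of 39 members passed 1.2-fold in either direction, beside 6.21% higher and 13.4% lower of all genes. Psmd11 (0.21), Psmb5 (0.16), Psmd13 (0.15), Psma2 (0.12) and Psma5 (0.12) were highest and Psmd6 (−0.17), Psmd1 (−0.13), Psmc1 (−0.06), Psmd9 (−0.06) and Psme4 (−0.05) lowest, with Psmc3 (0.06) the highest ATPase, Psma1 (−0.01) and Psmb2 (0.02) the lowest of their roles, and Psmb10, Psme1, Psme2, Psmb7 and Psme3 at 0.09, 0.06, 0.08, 0.09 and 0.11. In cycling cells 0 of 40 were higher and 1 lower, beside 5.35% and 10.7% of all genes. The lower one was Psme4 (−0.45, −0.72 to −0.17), and Psmd12 (0.22), Psme2 (0.20), Psmb5 (0.19), Psmd11 (0.19), Psmb10 (0.17), Psmb7 (0.16), Psma4 (0.15) and Psmc4 (0.15) stood highest, with Psme1 at 0.07, Psme3 at −0.02, Psmc3ip at −0.12, Psmd5 at −0.05 and Psma2, Psmb2 and Psmc1 at 0.02, 0.00 and 0.02. In cells thinned to 2500 UMIs and without the 6% of cells with the most UMIs, 7 members were higher past 1.2-fold in cycling cells, and the share of all genes at these settings is not given.

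Psmb10, Psme1, Psme2 and Psmd13 were the members that were higher in BM + Spl in each of 9 gates (NKT1, intermediate, NKT2, NKT17, S, G2/M, Treg, CD8 and pDC). B cell-gated cells (82 in BM only and 66 in BM + Spl) and ungated cells were not among these 9 gates. None of the 4 members was past 1.2-fold in each gate, and Psmd13 was at 0.00 in Treg-gated cells. Psmb10 was at only 0.03 in NKT1-gated cells, and at −0.23 in those with other V beta segments. The share of all genes higher in each of these gates is not given. In Treg-gated cells Psme2 had a ratio of 0.61 (0.51 to 0.71), Psmb10 of 0.56 (0.35 to 0.77) and Psme1 of 0.34 (0.23 to 0.45), the 3 members of 39 higher past 1.2-fold there, beside 13.9% of all genes, with 0 lower beside 22.7%. The median member had 0.05 in Treg-gated cells, below the 0.08 in cycling cells. In NKT17-gated cells Psme2 had 0.63 (0.49 to 0.76), Psme1 0.60 (0.44 to 0.75) and Psmb10 0.40 (0.14 to 0.65), beside a median of 0.23. Psmb7 had −0.02 and 0.00 in these gates and −0.65 (−1.02 to −0.28) in pDC-gated cells, on 172 and 97 UMIs, where Psme4 had −0.74.

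Other transcripts moved with these differences, and their part in them was not tested. The 7 interferon genes summed to 101 and 270 CPM in NKT17-gated cells of BM only and BM + Spl, to 188 and 277 CPM in Treg-gated, 251 and 271 CPM in NKT1-gated and 325 and 377 CPM in NKT2-gated cells. Interferon-high cells were 3.98% (2.45% to 6.07%) and 7.23% (5.09% to 9.91%) of Treg-gated cells. The 5 dissociation stress genes (Fos, Jun, Hspa1a, Hspa1b, Dnajb1) went the other way, from 3149 to 1813 CPM in NKT1-gated, 4485 to 1848 CPM in NKT17-gated and 1254 to 549 CPM in NKT2-gated cells. Median depth in NKT1-gated cells was 4272 and 4390 UMIs. It differed more in Treg-gated (3827 and 4386 UMIs), NKT17-gated (4678.5 and 5208), NKT2-gated (7396 and 8205.5) and cycling cells (11599 and 13455). In intermediate cells depth went the other way, at 6965 and 5754 UMIs. The NKT1 gate itself also differed between BM only and BM + Spl. Its NKT2 genes summed to 153 and 253 CPM and its NKT1 genes to 3605 and 2624 CPM. The sort marker genes Cd24a and Klrb1c summed to 130 and 26.9 CPM there. Klrb1c UMIs were found in 19.7% and 3.17% of all cells of these libraries, although the sort was for NK1.1-negative cells.

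**Figure D5:**
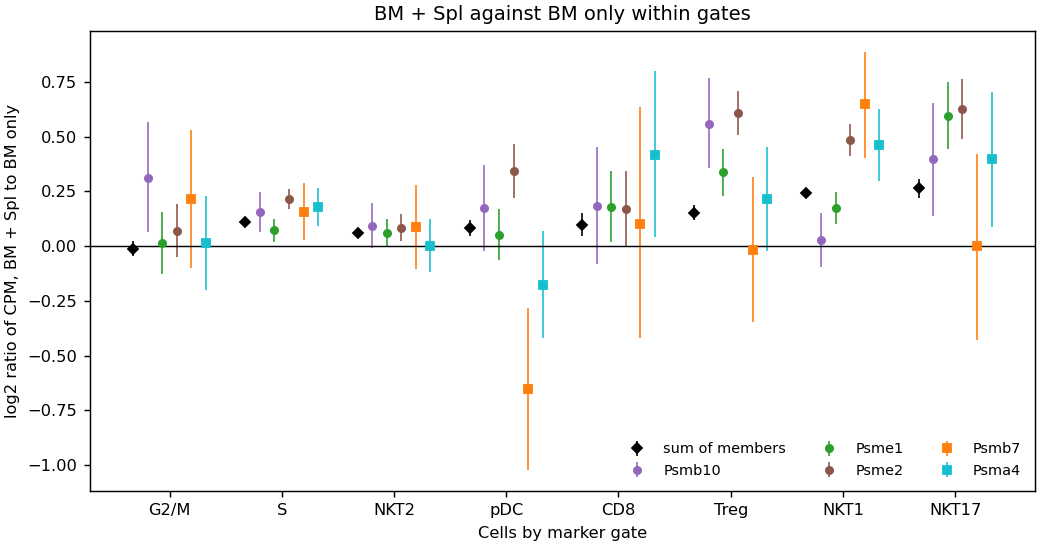
log2 ratio of CPM of BM + Spl to BM only for the summed members and for Psmb10, Psme1, Psme2, Psmb7 and Psma4 by marker gate (x axis), with exact 95% counting intervals. In Treg- and NKT17-gated cells Psmb10, Psme1 and Psme2 lie above the summed members, and Psmb7 lies at 0.65 in NKT1- and −0.65 in pDC-gated cells.

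The tissue-restricted variants were almost absent. Psma8, the testis variant of Psma7, had 6, 16 and 17 UMIs in C57BL/6, BM only and BM + Spl, and Psmb11 had 3, 0 and 0 UMIs, where a count of 0 allows up to 3 UMIs (a floor of 3 counts, used here in place of the exact interval). Both were under 10 CPM in every library, and 39 members were over it in every library.

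Among 25 related genes of the pathway (assembly, associated, delivery, ubiquitin and transcription factor genes), all 5 assembly factors of this list (Pomp and Psmg1 to Psmg4) had ratios above 0 in cycling cells and below 0 in NKT1-gated cells of each library, as the summed subunits did. The assembly chaperone Psmd10, which is counted among the members, did not have these signs in each library. Neither did other Psmd genes such as Psmd5 and Psmd9, which were above 0 in NKT1-gated cells of C57BL/6. The 5 factors of this list thus do not stand for all assembly genes. In cycling against NKT2-gated cells 17, 9 and 8 of the 25 were higher and 1, 4 and 3 lower past 1.2-fold in C57BL/6, BM only and BM + Spl. Of all genes 31.1%, 30.1% and 29.4% were higher and 21.6%, 23.8% and 22.8% lower, so in the BMT libraries the higher counts were near the share of all genes. Uchl5, a deubiquitinase of the 19S particle, was highest of the 25 (1.18 and 1.38 in C57BL/6 and BM only). Of the ubiquitin group, the activating enzyme Uba1 had 0.29, 0.45 and 0.25. In NKT1- against NKT2-gated cells 10, 11 and 6 were lower, beside 20.9%, 28.2% and 24.6% of all genes, and 2, 2 and 3 higher, beside 28.9%, 28.6% and 32%, with the assembly chaperone Psmg1 lowest (−1.58, −1.32 and −1.10), and Pomp, the maturation factor of the core, at −0.35, −0.46 and −0.39. Nfe2l1, the transcription factor of proteasome genes, had −0.19, −0.47 and −0.18 in cycling cells and 0.22, −0.02 and 0.29 in NKT1-gated cells. In BM + Spl against BM only over all cells 3 were higher and 1 lower, near the 12.2% of all genes that were higher, namely Psmg1 (0.57), Psmg4 (0.31), Uchl5 (0.30) and Nfe2l2 (−0.51).

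Log2 levels were correlated with the sum of the members across 26 points (gates of at least 50 cells in the 3 libraries, each centred on its library). Pearson's r was 0.97 for Psmb5 and 0.96 for Psma3 and Psmc2. Psme2, Psmb7 and Psme3 had 0.88, 0.83 and 0.77. It was lower for Psme1 (0.47), Psmd5 (0.46), Psmd10 (0.31), Psmb10 (0.09) and Psme4 (−0.12), and Psme2b had −0.52. Of the interferon-inducible genes, Psme2 thus went with the sum while Psmb10 and Psme1 did so less. The sum contains each of these genes, and points of a library share depth and composition. Of 2797 other genes with at least 50 CPM, those most like the sum were Ndufs6 (0.98), Sdhb (0.98), Ndufc2 (0.97), Atp5md (0.96) and Atp5k (0.96), genes of the respiratory chain and ATP synthase, and the least like were Fau (−0.91) and Mycbp2 (−0.90).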

How the data were processed

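Thymic T cells of 3 libraries (C57BL/6, BM only and BM + Spl, 1 library each) were measured by droplet single-cell RNA sequencing. The authors deposited filtered matrices of raw UMI counts per gene and cell, made with Cell Ranger against mm10 (GRCm38); the matrix headers name version 3.0.2 for C57BL/6 and 7.0.0 for the BMT libraries, and whether intronic reads were counted is not given in the sources used here. The submitters' processing notes also name Seurat 4.0.2. The labels name both 3′ and 5′ kits. Deposited barcodes numbered 4613, 5986 and 5573, with 60600408, 35041153 and 43383960 UMIs.

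Kept were cells with more than 200 but fewer than 6000 detected genes whose mitochondrial UMIs made up less than 10%. No doublet caller was run; the 6% of cells with the most UMIs were left out as an alternative. Cells were gated by summed marker UMIs: at least 5 for other lineages and for cycling cells, at least 2 for CD8 and NKT17, at least 1 for Treg, and for NKT1 and NKT2 at least 3 UMIs on both lists together with at least 2 of 3 on one. UMIs were summed over the cells of a gate and scaled to CPM (UMIs per 1000000 UMIs of the gate), with no pseudocount. Genes with at least 10 CPM over both groups compared were used, and calls were made past 1.2-fold and 1.5-fold. Intervals are exact 95% Poisson, Clopper-Pearson or conditional binomial intervals. They cover counting error only, since 1 library per condition allows no test. UMIs are not divided by gene length, so levels were not compared between genes.

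The members and lists were chosen with earlier results of these data known. Named are the highest and lowest member of each role and the 5 highest and 5 lowest in each main comparison, and always Psmb10, Psme1, Psme2, Psmb7, Psme3 and Psme4. Simulated counts for cycling against NKT2-gated cells of BM only (7698 genes, 193 changed by 1.5-fold) gave the right sign for 100% of changed genes, and 98.4% of these and 8.21% of unchanged genes passed 1.2-fold. These counts held Poisson error only, without differences between cells, mice or libraries. The 8.21% is thus not a rate of false calls in the data, and changes under 1.5-fold were not simulated. Alternatives changed the scaling, gates, thinning (2500 UMIs per cell), filters and cell weights. Python 3.11.15, numpy 2.4.6, scipy 1.17.1, pandas 2.3.3 and matplotlib 3.10.9 were used.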

Additional observations from a re-analysis of the deposited data

Results flagged for a closer look

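Psmb7 differed between gates in BM + Spl against BM only. Its log2 ratio of CPM was 0.65 (0.40 to 0.89) in NKT1-gated cells and −0.65 (−1.02 to −0.28) in pDC-gated cells, with 1 library on each side. The difference between the gates was not tested.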

How the results depend on the processing

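Over 220 alternative values, 166 stayed within the counting interval or within 1.5 times the count, 54 moved and 0 reversed, and 98 of 98 level ratios kept their sign; the cause of the moves was not tested. Ratios below are log2 ratios of the summed members, in the order C57BL/6, BM only, BM + Spl where 3 are given. Counts of members at these settings stand without the share of all genes called.
Without mitochondrial and ribosomal UMIs, cycling against NKT2-gated cells had 0.42, 0.16 and 0.19, NKT1- against NKT2-gated cells −0.40, −0.48 and −0.33 (24 lower members in BM + Spl), and BM + Spl against BM only 0.22 in NKT1-gated cells. With gates set on thinned cells, added after seeing the data, these were 0.43, 0.22 and 0.20, −0.43, −0.42 and −0.16, and 0.33 (24 higher members), with 0.058 in cycling cells. Without the 6% of cells with the most UMIs, cycling against NKT2-gated cells had 0.51, 0.14 and 0.26 (13 higher members in BM only), BM + Spl against BM only had 0.26 over all cells (14 members) and 0.18 in cycling cells (7 members), and the Psmb10 share was 64.2%, 77.9% and 75.1%. Thinned to 2500 UMIs, the Psmb10 share was 66.8%, 77.6% and 75.8%, BM + Spl against BM only had 0.23 over all cells, 0.20 in NKT1-gated and 0.12 in cycling cells, with 7 higher members in cycling and 2 in NKT2-gated cells, and NKT1- against NKT2-gated cells had −0.35 in BM only. In cells with iNKT V beta segments, the Psmb10 share was 60.5% in C57BL/6 and 72.1% in BM + Spl, BM + Spl against BM only had 0.25 over all cells (18 members) and 0.077 in cycling cells, and C57BL/6 had 0.53 for cycling and −0.25 for NKT1- against NKT2-gated cells. With each cell given the same weight, BM + Spl against BM only had 0.24 over all cells, 0.10 in NKT2-gated and 0.11 in cycling cells, NKT1- against NKT2-gated cells −0.34 in BM only, and cycling cells 0.29 in BM only and 0.30 in BM + Spl. With at least 10 cycling UMIs, C57BL/6 had −0.38 for NKT1- against NKT2-gated cells and BM only 0.28 for cycling cells. Stricter gates gave −0.34 for NKT1- against NKT2-gated cells of C57BL/6, and with at least 3 UMIs and no CPM filter 1 member was higher in cycling cells of BM + Spl against BM only. All deposited barcodes, a 50 CPM filter and, added after seeing the data, leaving out shared barcodes moved none of these values. No paired analysis was possible because the labels give no replicate numbers and each group has 1 library, so no replicate could be left out either.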
